A study of Mus musculus with 21 samples.

Results

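Elastic fibre and lysyl oxidase genes were followed across 21 mouse heart arrays: Lox, Loxl1, Loxl2, Loxl3, Eln, Fbn1, Mfap4, Mfap5, Fbln2 and Fbln5. The 10 genes were chosen by name, with earlier results of these data known, and all of their probe sets were taken. The shares of all tested genes set beside their counts below are therefore descriptive and give no independent support. Of the 10, 8 had a probe set assigned to that gene alone, and all 8 passed the filter on low levels and were tested, among 13279 tested genes of 18193 with a probe set. Loxl2 shared both of its probe sets with Gm21451, and Fbn1 had no probe set in the annotation used here, so Fbn1 is not analysed here.

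The study compared G4D mice, a gene-targeted line with reduced Gata4 by the series' design text, with wild-type mice, each after transverse aortic constriction (TAC) or a sham operation. TAC ties a ligature around the aortic arch and loads the left ventricle with pressure, whereas sham mice had the same operation without the ligature. The 4 groups were G4D TAC with 6 arrays, wild-type TAC with 6, G4D sham with 5 and wild-type sham with 4. The labels name cardiac myocytes as the source of total RNA. Strain, age, sex, the time after TAC and the use of isolated cells or whole tissue are not given in the sources used here. Nothing states that replicates are separate animals, so p-values measure the spread between these samples, which may be technical.

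Elastic fibres are built from tropoelastin, the product of Eln, laid onto a scaffold of fibrillin microfibrils. Fibrillin-1 (Fbn1) forms the microfibril, and Mfap4 and Mfap5 encode glycoproteins that associate with it. Fibulin-5 (Fbln5) and fibulin-2 (Fbln2) bind tropoelastin and fibrillin, and fibulin-5 is needed for elastic fibre assembly in mice. Lysyl oxidases (Lox and its relatives Loxl1, Loxl2 and Loxl3) are copper enzymes that oxidise lysines in elastin and collagen so that the chains crosslink. In the heart these proteins are made mainly by fibroblasts and vascular smooth muscle cells, and they are laid down with collagen when the ventricle is overloaded.

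RefSeq promoter sequence (GRCm38.p6) was at hand for 3 of the 10 genes, Fbn1, Fbln2 and Fbln5. The 250 bases before the Fbln5 start that lies at the annotated end of the gene, chr12:101819120-101819369 on the minus strand, are shown because Fbln5 differed between the genotypes after TAC; capitals mark the GC box GGGCGG on either strand.
Fbln5 promoter: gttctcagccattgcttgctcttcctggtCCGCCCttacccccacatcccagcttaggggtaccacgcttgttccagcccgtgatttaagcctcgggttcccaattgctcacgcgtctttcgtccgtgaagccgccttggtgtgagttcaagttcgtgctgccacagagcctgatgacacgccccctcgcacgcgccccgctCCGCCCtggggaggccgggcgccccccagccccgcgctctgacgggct
Its GC content was 65.2%, and the GC box matched 2 times, with its first base 221 and 48 bases before the start. The window held no match, on either strand, to 5 other motifs searched for. These were the GATA motif, spelled AGATAA, then for SMAD factors the letters CAGAC, for TEAD factors the letters GGAATG, for AP-1 the letters TGANTCA, and lastly for the TATA box the letters TATAAA. A second Fbln5 start, whose window lies inside the annotated gene, had 2 SMAD matches, at 199 and 15 bases, and no GC box. The Fbln2 window, which also lies inside the annotated gene, had 1 GC box, at 16 bases, and the Fbn1 window, which overlaps the gene's annotated end, had 1, at 185 bases. Of 32851 mouse promoter windows of the same length, 32.7% held the GC box, 42.2% the SMAD motif, 12.6% the TEAD motif, 12.4% the TATA box, 9.99% the GATA motif and 6.75% the AP-1 motif. These matches describe letters in a window, and no binding was measured.

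All levels below are log2 values after quantile normalization, and a difference of 1 is a doubling. Each array correlated with the mean of the others in its group at 0.969 or more. G4D sham array 5 stood apart in 7 atrial markers, whose mean level was 10.15 there and at most 7.32 on every other array, and values without it are given below. The 8 cardiomyocyte markers, such as Myh6 and Tnnt2, averaged 12.37 ± 0.04 in G4D TAC, 12.41 ± 0.02 in wild-type TAC, 12.43 ± 0.04 in G4D sham and 12.46 ± 0.02 in wild-type sham (SD). Neither Gata4 probe set was called between the genotypes: the first stood at 0.17 ± 0.11 (SE) after TAC and -0.25 ± 0.12 in sham for G4D over wild type, and where the probes lie relative to the targeted part is not given, so Gata4 does not check the genotype labels. In bulk samples, more cells of a type and more RNA per cell cannot be told apart.

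The elastic fibre and lysyl oxidase genes rose together after TAC in G4D hearts. All 8 tested genes were called higher (limma, adjusted p under 0.05), against 13.2% of all tested genes, and 5 of the 8 had groups that did not overlap, against 6.73% of all. Their median log2 fold change was 1.31, and that of all tested genes -0.02. In wild-type hearts 5 of 8 were called higher, against 5.19% of all, 5 had groups that did not overlap, against 6.36% of all, and the median was 0.78 beside -0.02 for all. Lox, Loxl1, Mfap4, Mfap5 and Fbln2 were the genes called, and the ones whose groups did not overlap, in wild type. Without G4D sham array 5 all 8 were still called in G4D, with a median of 1.51.

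**Figure D1:**
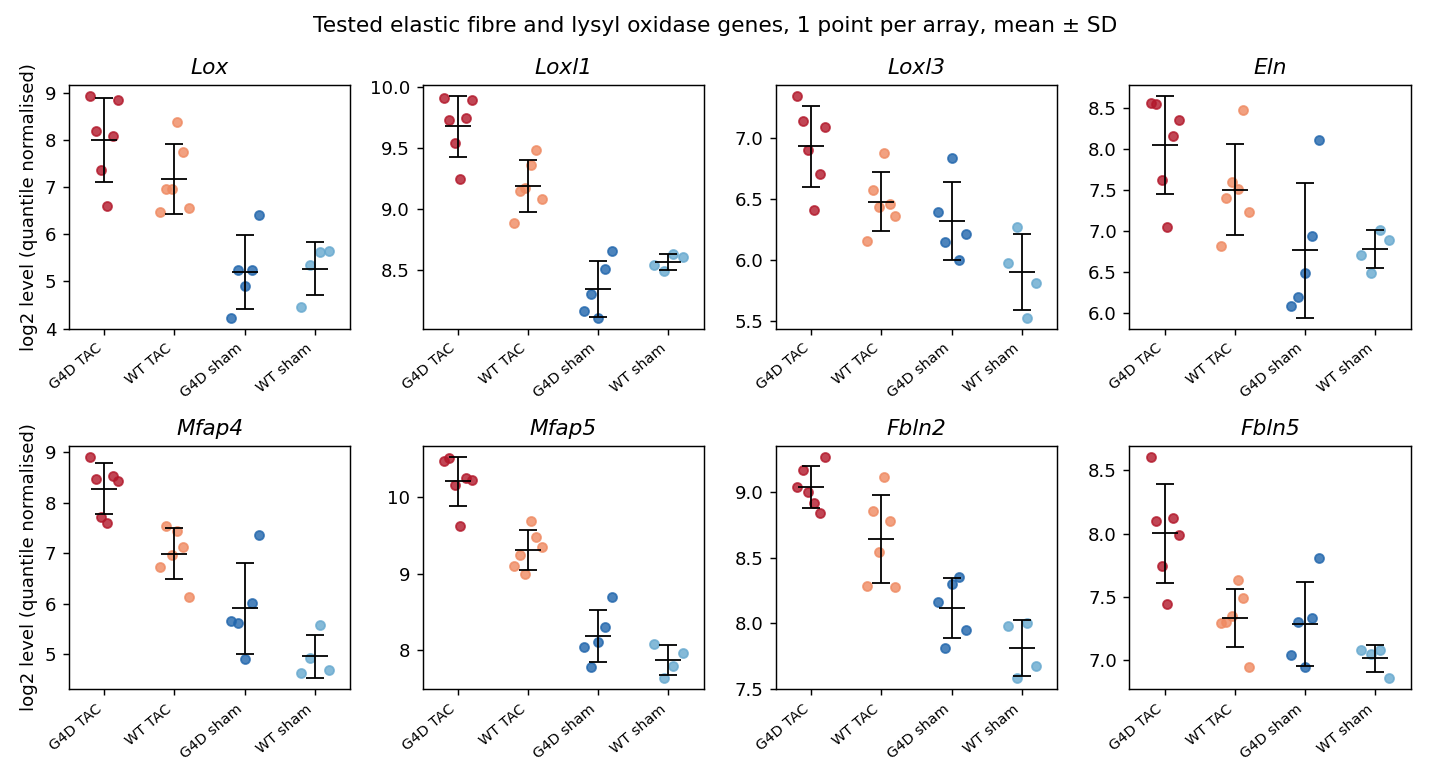
Log2 level (quantile normalised) of the 8 tested genes on each of 21 arrays, 1 point per array, with the group mean and SD as bars and the groups from left to right G4D TAC, wild-type TAC, G4D sham and wild-type sham; each panel has its own axis. Both TAC means lie above both sham means in 8 of 8 panels, and G4D sham array 5 is the highest of its group in 6.

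Among the structural genes, Eln, which encodes tropoelastin, ran from 7.06 through a median of 8.26 to 8.56 in G4D TAC, against 6.09, 6.21, 6.50, 6.95 and 8.11 in G4D sham. On the tested probe set it rose by 1.28 ± 0.33 (SE) with TAC in G4D hearts (adjusted p = 0.00832), whereas its other probe set was not called. The G4D groups overlapped only through sham array 5, whose 8.11 lay within the TAC range; without it the fold change was 1.62 on the log2 scale. In wild type, Eln ran from 6.82 through 7.46 to 8.48 after TAC, against 6.71, 6.50, 7.02 and 6.90 in sham. That difference of 0.73 ± 0.36 was not called (adjusted p = 0.262).

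Mfap4, a microfibril-associated glycoprotein that binds tropoelastin, ran from 7.60 through 8.46 to 8.91 in G4D TAC, against 5.67, 5.61, 4.91, 6.02 and 7.35 in G4D sham, so the lowest TAC array lay just above the highest sham array. It rose by 2.37 ± 0.34 in G4D (adjusted p = 4.51e-05), a fold of 5.16. In wild type it ran from 6.14 through 7.04 to 7.54 after TAC, against 4.63, 4.92, 5.57 and 4.70 in sham, with no overlap, and rose by 2.04 ± 0.36 (adjusted p = 0.0015). Mfap5, a glycoprotein of the fibrillin microfibril, ran from 9.62 through 10.24 to 10.51 in G4D TAC, against 8.04, 7.78, 8.11, 8.30 and 8.69 in G4D sham. It rose by 2.02 ± 0.17 (adjusted p = 1.25e-07). Its wild-type values ran from 8.99 through 9.30 to 9.69 after TAC, against 8.08, 7.63, 7.79 and 7.97 in sham, a rise of 1.44 ± 0.18 (adjusted p = 7.25e-05).

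Fbln2 rose in both genotypes, with a smaller spread in G4D TAC (SD 0.16) than in wild-type TAC (SD 0.34). It ran from 8.84 through 9.02 to 9.27 in G4D TAC, against 8.16, 7.82, 8.30, 8.35 and 7.95 in G4D sham, a rise of 0.92 ± 0.14 (adjusted p = 9.87e-05). In wild type it ran from 8.28 through 8.66 to 9.12 after TAC, against 7.98, 7.58, 8.01 and 7.68 in sham, a rise of 0.83 ± 0.15 (adjusted p = 0.00191) that was not called in the values as deposited (0.74, adjusted p = 0.203). Fbln5, needed for elastin assembly, ran from 7.44 through 8.05 to 8.61 in G4D TAC, against 7.04, 7.30, 6.94, 7.33 and 7.80 in G4D sham. It rose by 0.72 ± 0.17 (adjusted p = 0.00436), and the groups overlapped. In wild type Fbln5 ran from 6.94 through 7.32 to 7.63 after TAC, against 7.08, 7.05, 7.08 and 6.86 in sham, and its difference of 0.32 ± 0.18 was not called (adjusted p = 0.356).

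Among the crosslinking enzymes, Lox had the largest response of the 8 genes in G4D by the tested probe sets. Its other probe sets rose less in G4D, by 1.26 and by 1.18 (not called). Over the processing alternatives the Lox rise in G4D went down to 2.03, below the lowest Mfap4 value of 2.34. On the tested probe set, Lox ran from 6.59 through 8.13 to 8.94 in G4D TAC, against 4.23, 5.24, 4.90, 5.24 and 6.40 in G4D sham. Every G4D TAC array lay above every G4D sham array, and the rise of 2.80 ± 0.43 (adjusted p = 8.36e-05) was a fold of 6.96. In wild type Lox ran from 6.47 through 6.96 to 8.38 after TAC, against 4.45, 5.36, 5.63 and 5.65 in sham, a rise of 1.91 ± 0.46 (adjusted p = 0.0128). Without wild-type sham array 1, the lowest of its group, that rise was 1.63 and was no longer called (adjusted p = 0.0649).

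Loxl1, which acts mainly on elastin, ran from 9.25 through 9.74 to 9.91 in G4D TAC, against 8.16, 8.30, 8.11, 8.51 and 8.65 in G4D sham, and rose by 1.33 ± 0.13 (adjusted p = 4.93e-07). In wild type it ran from 8.88 through 9.16 to 9.49 after TAC, against 8.54, 8.49, 8.63 and 8.60 in sham, a rise of 0.63 ± 0.13 (adjusted p = 0.00611). The wild-type sham arrays lay between 8.49 and 8.63. That wild-type call was lost in the values as deposited (0.53, adjusted p = 0.806) and with median centring of each array (0.60, adjusted p = 0.108). Loxl3 ran from 6.41 through 6.992 to 7.34 in G4D TAC, against 6.40, 6.15, 6.83, 6.004 and 6.22 in G4D sham, and rose by 0.61 ± 0.17 (adjusted p = 0.0138). In wild type it ran from 6.15 through 6.45 to 6.88 after TAC, against 5.98, 6.27, 5.53 and 5.81 in sham. The wild-type difference of 0.58 ± 0.18 was not called (adjusted p = 0.0608), and was called under 5 of 11 processing alternatives.

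**Figure D2:**
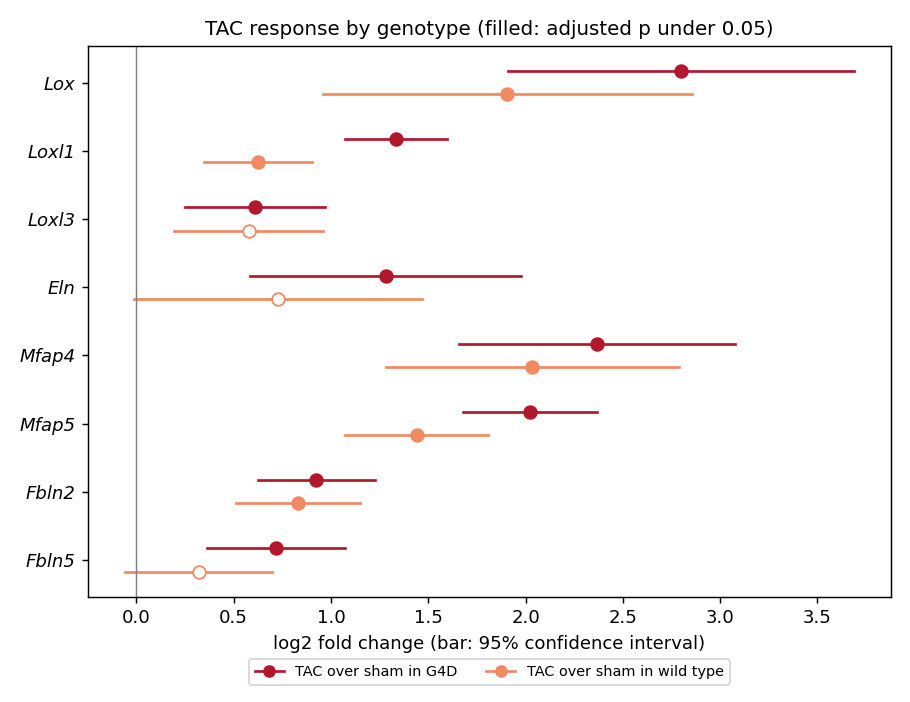
Log2 fold change of TAC over sham for the 8 tested genes in G4D and in wild type, with 95% confidence intervals as bars and filled points for genes called at an adjusted p under 0.05. All 8 points are filled for G4D and 5 of 8 for wild type; Lox and Mfap4 have the largest values in both.

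After TAC all 8 genes had a higher mean in G4D than in wild type, and 4 of 8 were called higher, against 2.10% of all tested genes. Mfap5, Mfap4, Fbln5 and Loxl1 were called. All 8 differences were above 0, with a median of 0.60 beside -0.01 for all tested genes. Mfap5 ran from 9.62 through 10.24 to 10.51 in G4D TAC, against 8.99 through 9.30 to 9.69 in wild-type TAC, a difference of 0.90 ± 0.16 (adjusted p = 0.00245). Only the lowest G4D array fell within the wild-type range.

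Mfap4 ran from 7.60 through 8.46 to 8.91 in G4D TAC, against 6.14 through 7.04 to 7.54 in wild-type TAC. It differed by 1.29 ± 0.32 (adjusted p = 0.0297) and was the only 1 of 8 whose groups did not overlap, against 1.75% of all tested genes. Fbln5 had a median of 8.05 in G4D TAC and 7.32 in wild-type TAC and differed by 0.67 ± 0.16 (adjusted p = 0.0251). Loxl1 had a median of 9.74 in G4D TAC and 9.16 in wild-type TAC and differed by 0.49 ± 0.12 (adjusted p = 0.0254).

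The other 4 genes were not called. Lox stood at 0.82 ± 0.41 (95% interval -0.02 to 1.67, adjusted p = 0.402) and Eln at 0.54 ± 0.32 (-0.121 to 1.204, adjusted p = 0.530), the widest standard errors of the 4. Loxl3 stood at 0.45 ± 0.16 (0.11 to 0.80, adjusted p = 0.168) and Fbln2 at 0.40 ± 0.14 (0.11 to 0.68, adjusted p = 0.141).

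The 4 calls rest unequally on single arrays. Mfap5 was called with each array left out in turn. Mfap4 and Fbln5 were each lost without 7 of the 12 TAC arrays and Loxl1 without 8. Only 1 gene stayed called without wild-type TAC array 1, 3 or 6 or G4D TAC array 1, 2 or 5, 2 without wild-type TAC array 2 or G4D TAC array 6, and 5 without wild-type TAC array 4 or G4D TAC array 4. The adjusted p of those lost calls lay between 0.0504 and 0.0872, and the differences between 0.43 and 1.28 on the log2 scale. In the values as deposited 2 of 8 were called, with median centring 2, and in a fit of the 2 TAC groups alone 2. Mfap4 was not called without the filter on low levels (adjusted p = 0.0545), and with array weights Loxl3 (adjusted p = 0.0216) and Fbln2 (adjusted p = 0.0402) were called.

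**Figure D3:**
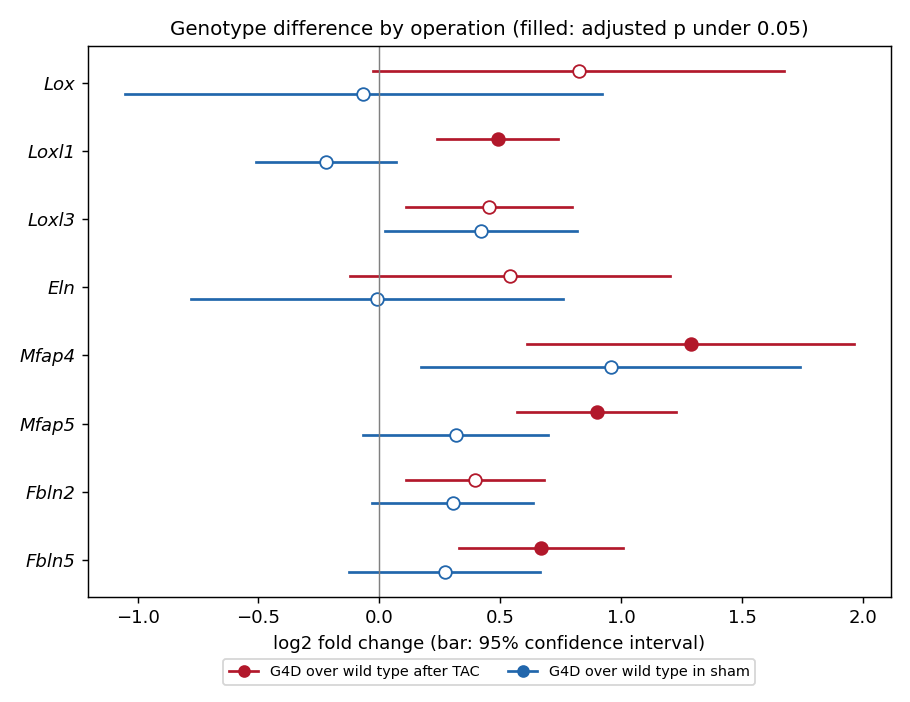
Difference between G4D and wild type, as a log2 fold change, for the 8 tested genes after TAC and in sham, with 95% confidence intervals as bars and filled points for genes called at an adjusted p under 0.05. After TAC all 8 points lie above 0 and 4 are filled; in sham 0 of 8 are filled and the values run from -0.22 (Loxl1) to 0.96 (Mfap4).

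In sham hearts 0 of 8 genes were called by limma between G4D and wild type, against 0.0527% of all tested genes, and 2 had an unadjusted p under 0.05. Mfap4 stood at 0.96 ± 0.38 (95% interval 0.17 to 1.74, adjusted p = 0.488) and at 0.60 without G4D sham array 5. Loxl3 stood at 0.42 ± 0.19 (0.02 to 0.82, adjusted p = 0.586). Lox at -0.07, Eln at -0.01 and Loxl1 at -0.22 lay below 0. Lox and Eln fell to -0.37 and -0.35 without G4D sham array 5 and lay above 0 in other settings. Mfap5 (0.32), Fbln2 (0.30) and Fbln5 (0.27) lay above 0, and just below 0 in the values as deposited.

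Whether the TAC response differed between the genotypes was tested as an interaction, the log2 TAC effect of G4D hearts minus the wild-type one. None of the 8 genes was called by limma (0 of 8, against 0.0151% of all tested genes), and 2 had an unadjusted p under 0.05. All 8 values lay above 0, from 0.03 for Loxl3, which fell below 0 when some single arrays were left out, to 0.89 ± 0.62 for Lox, with a median of 0.47 beside 0.01 for all. Loxl1 stood at 0.71 ± 0.18 (95% interval 0.33 to 1.09, adjusted p = 0.196) and Mfap5 at 0.58 ± 0.24 (0.08 to 1.09, adjusted p = 0.497). The larger number of calls in G4D than in wild type is therefore not shown to be a difference in response. Without G4D sham array 5 the median was 0.70 and 0 of 8 were called; Lox stood at 1.19, Eln at 0.89, Mfap5 at 0.71, Mfap4 at 0.69 and Fbln5 at 0.53.

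In the order of the group means, 5 of 8 genes ran G4D TAC, wild-type TAC, G4D sham, wild-type sham from high to low. Lox, Loxl1 and Eln had wild-type sham above G4D sham, neighbours that were not called apart. The mean over the 8 genes was 8.52 ± 0.40 in G4D TAC, 7.83 ± 0.32 in wild-type TAC, 7.02 ± 0.38 in G4D sham and 6.77 ± 0.10 in wild-type sham (SD). Many of the genes had their group extremes on the same arrays. G4D TAC array 4 was the lowest of its group for 7 of 8 genes and array 1 the highest for 6. G4D TAC array 4 was also lowest of its group in some other measures. These were its deposited median (4.37), its correlation with the other arrays (0.977) and its fibroblast (8.56) and macrophage (7.71) marker means. Its smooth muscle and pericyte (8.59), endothelial (8.35), atrial (6.90) and cardiomyocyte (12.38) marker means were not the lowest. Its erythroid marker mean (6.16) was the highest of the group. G4D sham array 5 was the highest of its group for 6 of the 8 genes, and wild-type TAC array 4 for 5.

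**Figure D4:**
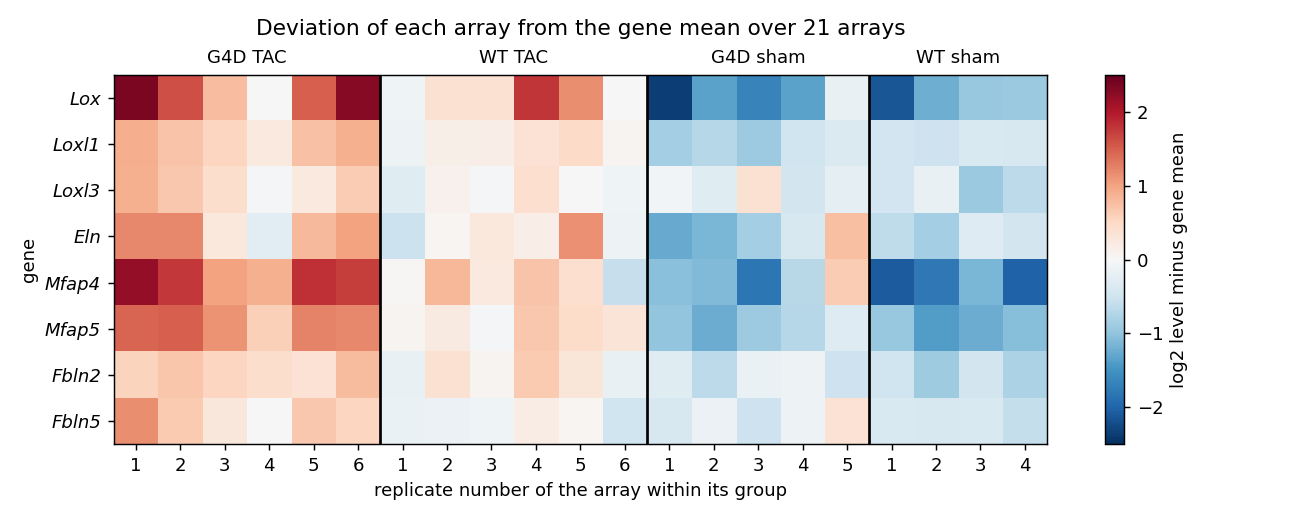
Log2 level of each tested gene on each array less that gene's mean over 21 arrays, with genes as rows and arrays as columns grouped, from left to right, as G4D TAC, wild-type TAC, G4D sham and wild-type sham; red is above the gene's mean and blue below. G4D TAC array 4 is paler than its neighbours for most genes, and G4D sham array 5 is red for Eln, Mfap4 and Fbln5.

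The 8 genes had 15 probe sets in all. In a fit of every probe set without a filter, 11 of 15 were called higher with TAC in G4D, against 5.70% of all probe sets, 7 with TAC in wild type, against 1.69%, and 2 between the genotypes after TAC, against 0.597%. Both of those 2 were Mfap5. The 15 lay above 0 in 14, 13 and 15 cases in these comparisons. A second Loxl1 probe set, called with TAC in both genotypes, averaged 5.07 in G4D TAC, 4.32 in wild-type TAC, 3.35 in G4D sham and 3.22 in wild-type sham, with all but the G4D TAC mean below the filter level of 4.35. A second Lox probe set rose by 1.26 ± 0.28 in G4D (adjusted p = 0.00695). In wild type its difference of 0.75 ± 0.30 was not called (adjusted p = 0.290), though the groups did not overlap. The remaining Lox probe set, with sham means of 3.22 and 3.23 below the filter level in G4D and wild type, was not called. Low second probe sets of Fbln2, with group means between 2.56 and 3.08, and of Fbln5, between 3.28 and 3.41, were not called in any comparison. The second Eln probe set was not low, with group means between 5.34 and 6.07, and was also not called in any comparison. By limma it stood at 0.67 ± 0.24 with TAC in G4D (adjusted p = 0.0999) and 0.38 ± 0.26 in wild type (adjusted p = 0.660).

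Loxl2 (chr14:69608692-69695834, GRCm38.p6) encodes a lysyl oxidase active on collagen. Its 2 probe sets were also assigned to Gm21451, so their signal cannot be given to either gene. The first averaged 8.55 ± 0.30 in G4D TAC, 7.84 ± 0.46 in wild-type TAC, 6.53 ± 0.42 in G4D sham and 6.72 ± 0.08 in wild-type sham (SD). With TAC it rose by 2.02 ± 0.21 in G4D (adjusted p = 7.77e-06) and by 1.12 ± 0.23 in wild type (adjusted p = 0.0125), with groups that did not overlap in either genotype. The second averaged 5.54 ± 0.48 in G4D TAC, 4.97 ± 0.49 in wild-type TAC, 3.69 ± 0.79 in G4D sham and 3.59 ± 0.66 in wild-type sham. Its sham means lay below the filter level of 4.35, and it was called with TAC in G4D (adjusted p = 0.00177) and not in wild type (adjusted p = 0.0627). Between the genotypes after TAC they stood at 0.71 ± 0.20 (adjusted p = 0.135) and 0.58 ± 0.33 (adjusted p = 0.737).

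Further genes of the elastic fibre and microfibril numbered 33, of which 25 were tested. With TAC 10 of 25 were called higher in G4D and 2 lower, against 13.2% and 9.32% of all tested genes. The 2 called lower were fibulin-1 (Fbln1, -0.75 ± 0.17) and Emilin2 (-0.66 ± 0.14). In wild type 7 of 25 were called higher, against 5.19% of all, and 0 lower. The median was 0.23 in G4D and 0.11 in wild type. Ltbp2, a protein that binds fibrillin microfibrils, averaged 7.28 in G4D TAC, 5.82 in wild-type TAC, 3.42 in G4D sham and 3.45 in wild-type sham. Both sham means lay below the filter level of 4.35, so it was tested only through its TAC levels; it is 1 of the genes called higher in each genotype, and no fold with TAC is given. The proteoglycan Vcan rose by 2.12 ± 0.20 in G4D and 1.26 ± 0.21 in wild type, and fibronectin (Fn1) by 1.75 ± 0.26 in G4D and 1.69 ± 0.28 in wild type. Emilin1, an elastin-associated glycoprotein, rose by 1.57 ± 0.12 in G4D and 0.85 ± 0.13 in wild type, and Bgn, a small proteoglycan, by 1.202 ± 0.14 in G4D and 1.23 ± 0.15 in wild type. After TAC 7 of 25 were called higher in G4D than in wild type and 1 lower, against 2.10% and 1.26% of all, with a median of 0.23. In G4D, Ltbp2 was higher by 1.46 ± 0.30, Vcan by 0.78 ± 0.19 and Adamtsl2 by 0.63 ± 0.12, and Emilin2 was lower by 0.76 ± 0.13. In sham 0 of 25 were called, and for the interaction 0 of 25, by limma, with 5 at an unadjusted p under 0.05 in each; Bgn stood at 0.57 ± 0.15 and Itgb3 at -0.53 ± 0.33 in sham, and Vcan at 0.86 ± 0.29 for the interaction.

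Genes that supply lysyl oxidase or make and crosslink its collagen substrate numbered 25, of which 20 were tested. With TAC 17 of 20 were called higher in G4D, against 13.2% of all, and 8 in wild type, against 5.19%, with medians of 0.57 and 0.32. Loxl4, a further lysyl oxidase, did not rise. It averaged 5.27 in G4D TAC, 5.51 in wild-type TAC, 5.57 in G4D sham and 5.74 in wild-type sham. By limma it stood at -0.30 ± 0.16 with TAC in G4D (adjusted p = 0.184). For G4D over wild type after TAC it stood at -0.25 ± 0.15 (adjusted p = 0.547). Postn, a matrix protein that binds the lysyl oxidase activator Bmp1, rose by 3.42 ± 0.29 in G4D and 2.62 ± 0.30 in wild type. The collagen chain Col1a1 rose by 2.07 ± 0.27 in G4D and 1.58 ± 0.29 in wild type, Col1a2 by 1.63 ± 0.22 in G4D and 1.44 ± 0.23 in wild type, and Col3a1 by 1.56 ± 0.20 in G4D and 1.29 ± 0.21 in wild type. After TAC 4 of 20 were called higher in G4D, against 2.10% of all. They were P4ha1 (0.65 ± 0.10) and P4ha2 (0.34 ± 0.08), subunits of the enzyme that hydroxylates collagen prolines, Pcolce (0.57 ± 0.12), which enhances procollagen processing, and Tgm2 (0.53 ± 0.09), a crosslinking transglutaminase. In sham 0 of 20 were called by limma, with 2 at an unadjusted p under 0.05, Tgm2 (0.47 ± 0.11) and the copper importer Slc31a1 (-0.53 ± 0.13). For the interaction 0 of 20 were called, with 4 at an unadjusted p under 0.05; Postn stood at 0.80 ± 0.42 and Fmod at 0.79 ± 0.56.

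Of 21 elastin-degrading proteases and inhibitors, 17 were tested. With TAC 7 of 17 were called higher and 1 lower in G4D, against 13.2% and 9.32% of all, and 4 higher in wild type, against 5.19%, with medians of 0.20 and 0.14. The inhibitor Timp1, called higher in both genotypes, averaged 7.57 in G4D TAC, 7.07 in wild-type TAC, 4.32 in G4D sham and 4.48 in wild-type sham, so the G4D sham mean lay below the filter level. The elastases Ctsk and Ctss rose by 1.41 ± 0.18 and 0.91 ± 0.24 in G4D and by 0.90 ± 0.19 and 1.02 ± 0.25 in wild type, and the membrane protease Mmp14 by 1.75 ± 0.23 in G4D and 0.84 ± 0.25 in wild type. Ctsk alone (1 of 17, against 2.10% of all) was called between the genotypes after TAC, higher in G4D by 0.72 ± 0.17 (adjusted p = 0.0204). In sham and for the interaction 0 of 17 were called by limma, with 3 and 4 at an unadjusted p under 0.05; the inhibitor Timp3 stood at 0.90 ± 0.17 in sham (adjusted p = 0.0659) and -0.94 ± 0.23 for the interaction, and Timp4 at 0.67 ± 0.43 and -0.94 ± 0.57. Without G4D sham array 5, 8 in place of 7 elastic fibre genes outside the members were called higher after TAC; the other counts of genes called with TAC and between genotypes in these 3 lists and among the 8 genes did not change.

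Genes whose pattern over the 21 arrays was nearest to the mean of the 8, by the root mean square difference of centred log2 values, were Ctsk (0.196), Col3a1 (0.208), Serpinf1 (0.220), Bgn (0.226) and Col5a1 (0.227). Of the 8 genes, Loxl1 lay nearest to that mean (0.263) and Lox farthest (0.698). The nearest gene to Lox was Col1a1 (0.516), to Loxl1 Col6a1 (0.151), to Loxl3 Pqlc3 (0.230) and to Eln Nupr1 (0.332). For Mfap4 it was Tgfb2 (0.533), for Mfap5 Meox1 (0.246), for Fbln2 Igfbp7 (0.173) and for Fbln5 Ltbp3 (0.197). No gene had another of the 8 as its nearest. The nearest other gene of the set ranked 3 for Mfap4 (Mfap5), 4 for Eln (Loxl1) and 6 for Lox (Mfap4). That rank was 51 for Mfap5 (Loxl1), 109 for Fbln2 (Loxl1), 123 for Loxl3 (Fbln2), 145 for Loxl1 (Fbln2) and 362 for Fbln5 (Loxl3).

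Markers of the cells that make these proteins moved with them in part. The 12 fibroblast markers averaged 8.85 ± 0.15 in G4D TAC, 8.46 ± 0.19 in wild-type TAC, 8.11 ± 0.14 in G4D sham and 7.93 ± 0.08 in wild-type sham (SD). Of the 12, 7 were called higher and 1 lower with TAC in G4D, against 13.2% and 9.32% of all tested genes. In wild type 5 were called higher and 1 lower, against 5.19% and 2.16% of all. After TAC 4 were called higher in G4D than in wild type, against 2.10% of all. The same percentages of all tested genes hold for the other marker counts below. The fibroblast list shares Dcn with the elastic fibre list and holds Serpinf1, named above. The 9 tested macrophage markers averaged 7.93 ± 0.20 in G4D TAC, 8.05 ± 0.31 in wild-type TAC, 7.28 ± 0.16 in G4D sham and 7.33 ± 0.05 in wild-type sham. Of these 8 were called higher with TAC in G4D and 7 in wild type, and 0 between the genotypes after TAC. The 10 tested smooth muscle and pericyte markers averaged 8.56 ± 0.16 in G4D TAC, 8.49 ± 0.09 in wild-type TAC, 8.48 ± 0.21 in G4D sham and 8.39 ± 0.12 in wild-type sham. Of the 10, 1 was called higher and 1 lower with TAC in each genotype, in G4D near the shares of all tested genes. After TAC 2 of the 10 were called higher in G4D than in wild type. The 10 endothelial markers averaged 8.36 ± 0.15 in G4D TAC, 8.37 ± 0.16 in wild-type TAC, 8.37 ± 0.21 in G4D sham and 8.31 ± 0.14 in wild-type sham. The part of cell numbers in the differences of the 8 genes was not tested. The distance between the 3′ and 5′ actin controls, a measure of RNA quality, averaged 0.26 ± 0.11 in G4D TAC, 0.34 ± 0.11 in wild-type TAC, 0.45 ± 0.10 in G4D sham and 0.49 ± 0.10 in wild-type sham. The same distance for Gapdh averaged -0.20 ± 0.12 in G4D TAC, -0.235 ± 0.09 in wild-type TAC, -0.28 ± 0.05 in G4D sham and -0.17 ± 0.19 in wild-type sham, an order unlike that of actin. Their part in the results was not tested.

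**Figure D5:**
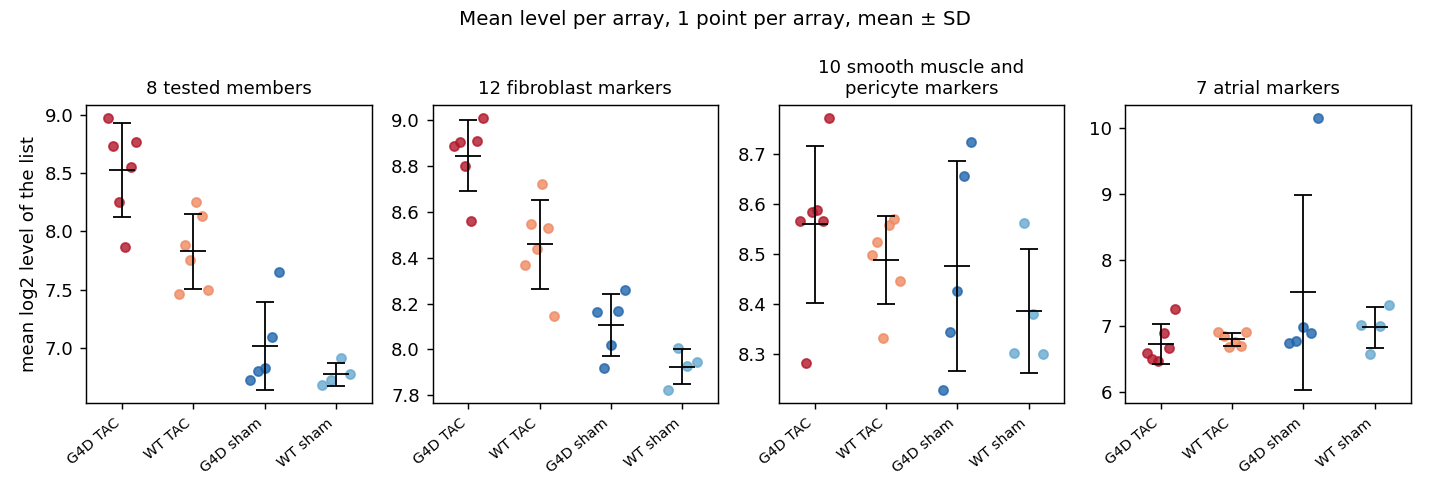
Mean log2 level per array of the 8 tested genes, 12 fibroblast markers, 10 smooth muscle and pericyte markers and 7 atrial markers, 1 point per array with the group mean and SD as bars, in the groups from left to right G4D TAC, wild-type TAC, G4D sham and wild-type sham; each panel has its own axis. The 8 genes and the fibroblast markers have the same order of group means. The smooth muscle and pericyte means have that order too, but run only from 8.56 to 8.39, with SDs of 0.09 to 0.21. G4D sham array 5 is at 10.15 in the atrial panel.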

How the data were processed

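RNA was measured on 21 mouse heart arrays, grouped by their titles. The authors deposited 1 log2 value per probe set and array, made with PLIER per the submitters' processing notes. The PLIER version and any normalization are not given in the sources used here. The log2 scale is taken from the range of the values (-13.5 to 15.1). Probe sets were named through the platform annotation. Of 45101, 64 controls were left out, 34945 of the other 45037 had 1 symbol, 932 several and 9160 none. The array medians lay between 4.31 and 5.33 and so differed by up to 1.02, for which reason the 45037 were quantile normalized. Probe sets with 1 symbol and a mean at or above the 40th percentile (4.35) were kept, and each gene was represented by its brightest, giving 13279 genes.

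Group means were fitted with limma 3.58.1 (R 4.3.3) over all 21 arrays with no covariate (17 residual degrees of freedom, 20.7 with the prior). Tests were two-sided, with Benjamini-Hochberg adjustment over all tested genes and a threshold of 0.05. Each gene's other probe sets were taken from a fit of all 45037. The fit was tested on simulated data. Precision is limited by the number of arrays. The genes, the lists and the tests were chosen with earlier results of these data known. Named genes are every gene of the set, in each list up to 4 called genes with the largest change (1 or 2 as values where none was called), the 5 nearest to the mean pattern, and Gata4. Second probe sets were described after their values were seen. Loxl4, Fbln1 and the fall of Emilin2 with TAC in G4D were added outside the naming rule, also with their values seen.

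Alternatives covered normalization, filter, floor, choice of probe set, variance model, array weights, samples in the fit, a replicate block and each array left out. The titles do not state whether equal replicate numbers pair samples, and the main fit treated the arrays as unpaired. Of 28 pairs of same-numbered arrays in different groups, 9 had deviations that correlated over 0.1 (r from -0.36 to 0.42). Differently numbered arrays were not compared in this way, so these values cannot decide whether samples were paired.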

Additional observations from a re-analysis of the deposited data

Results flagged for a closer look

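Among 68 combinations of a probe set and a group, 2 held an array far from the rest of its group by Dixon's test; chance puts about 5% of groups past that limit. The tested Fbln5 probe set was lowest on wild-type sham array 4, at 6.86, below the 7.05 to 7.08 of the other 3. A second Lox probe set, which was not the one tested, was lowest on G4D TAC array 4, at 2.51, where the median of its group was 4.47. No explanation was weighed for either.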

How the results depend on the processing

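Calls with TAC in G4D stayed at 8 of 8 under every processing alternative and with each array left out. With TAC in wild type 5 were called, 3 in the values as deposited and 4 to 6 with an array left out. After TAC 4 were called between the genotypes, 2 in the values as deposited, 2 with median centring, 2 in a fit of the 2 groups alone, and 1 to 5 with an array left out. In sham and for the interaction 0 were called under every processing alternative and with each array left out (1 further alternative is given last); a fit of 2 groups was not run for the interaction. Under the replicate block 4 were called after TAC, 8 and 4 with TAC in G4D and wild type, and 0 in sham and for the interaction; over all genes it called 274, 2379, 488, 3 and 1 in the same order, against 446, 2985, 976, 7 and 2. The Lox rise with TAC in wild type was lost under it (1.73, adjusted p = 0.0607).

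Differences in sham near 0 changed sign: Eln was 0.021 with the mean of the probe sets and 0.052 with array weights, and -0.35 to 0.16 with an array left out, and Lox was 0.041, 0.080 and -0.37 to 0.18. In the values as deposited Fbln2 was -0.035, Fbln5 -0.025 and Mfap5 -0.019. The Loxl3 interaction ran from -0.092 to 0.16 with an array left out. The causes were not tested. Over all genes, 64, 3, 2252, 95 and 6 were called in the values as deposited (after TAC, sham, TAC in G4D, TAC in wild type, interaction), with 87.5%, 0%, 97.8%, 94.7% and 100% higher and a median of all genes of 0.14, -0.28, 0.31, -0.10 and 0.42. With median centring 185, 4, 2178, 388 and 10 were called, with 82.7%, 25%, 88.8%, 93.8% and 100% higher, against 62.6%, 57.1%, 58.6%, 70.6% and 100% after quantile normalization; its medians were 0.02, -0.12, 0.10, -0.03 and 0.15. A further alternative, chosen after seeing the data, left out G4D sham array 5 together with G4D TAC array 4, and the Loxl1 interaction then passed the threshold; it was set aside because array 4 had been picked for its low levels of these genes. The number of arrays and the lack of stated biological replicates limit precision.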
